A study of Drosophila melanogaster with 18 samples.

Results

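Cultured Drosophila cell populations that each overproduce a different subunit of the Integrator complex were compared after induction of the transgene. One was the IntS6 line, DL1 cells that stably carry a FLAG-tagged IntS6 transgene, and the other the IntS12 line, DL1 cells that stably carry a FLAG-tagged IntS12 transgene. Both transgenes stand behind the MtnA promoter, which responds to copper. The 3 IntS6 libraries and the 3 IntS12 libraries made after copper are 6 of the 18 samples of the study, and they were chosen by the line and treatment in their titles, with all genes considered. Both lines had been transfected with a plasmid and selected with puromycin, were kept at 25 °C, grown for 3 d, and given 500 µM copper sulfate for the last 24 h. What they did not share was the transgene, the level it reached after copper and the history of the line. Each is 1 selected population, not a set of clones, so that a difference between the transgenes and a difference between 2 populations that were set up separately cannot be told apart within these 6 libraries. The same 2 lines without copper (3 libraries each) and parental DL1 cells, which carry no transgene, with and without copper (3 libraries each) served as further points of reference. The study's design text calls the libraries biological replicate sets without saying how the cultures were kept apart, so the p-values measure the spread between these samples, part of which may be technical.

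Integrator is a complex that associates with RNA polymerase II. It holds an RNA endonuclease that cleaves nascent transcripts, which forms the 3′ ends of small nuclear RNAs and ends transcription early at a number of protein-coding genes, an effect called attenuation. IntS6 belongs to the module that brings the phosphatase PP2A to the complex, and IntS12 is a small subunit with a PHD finger outside the catalytic modules.

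Ribosomal RNA was removed from total RNA before strand-specific sequencing. The 6 libraries held 13891221 to 16330411 counts, of which 70.2% to 73.0% lay in genes named as rRNA, which left 3.97 to 4.87 M counts for other genes. In a principal component analysis of these 6 libraries the first component, with 49.0% of the variance, placed the IntS6 libraries at 15.4 to 18.0 and the IntS12 libraries at -17.7 to -15.9. Of the 15 plasmatocyte (macrophage-like blood cell) markers examined, 14 had enough counts to be tested. Of the markers of other tissues, 2 of 8 for neurons, 1 of 7 for muscle and 0 of 6 for fat body passed the filter on low counts. None of those 3 tested genes was called by edgeR. Their unadjusted calls numbered 0 for neurons and 1 for muscle, and DESeq2 called 0 of either list.

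Each transgene gene was highest in the line its label names. IntS6 (FBgn0261383; BDGP6.54 annotation, minus strand of chromosome X from 5738663 to 5747254, a protein-coding gene) had 2326, 2557 and 2215 CPM (the count of a gene scaled to the TMM-adjusted size of its library) in the copper-treated IntS6 line and 41.7, 36.7 and 43.2 CPM in the copper-treated IntS12 line. The ratio of the lines was 58.3-fold, a log2 fold change of 5.87 ± 0.08 (± is the standard error beside every log2 value, n = 3 libraries a group, edgeR quasi-likelihood adjusted p = 3.09e-23). IntS12 (FBgn0039459; plus strand of chromosome 3R from 26863376 to 26864559, also protein-coding) had 2.62, 3.99 and 3.29 CPM in the IntS6 line and 94.6, 88.4 and 95.6 CPM in the IntS12 line (log2 -4.83 ± 0.12, 28.4-fold, edgeR adjusted p = 3.76e-18). The libraries of the lines did not overlap for either gene, and counts per gene join the transgene with the cell's own copy. In copper-treated parental cells IntS6 averaged 36.3 ± 1.45 CPM and IntS12 3.62 ± 0.317 CPM (SD, n = 3). The induced levels were unlike: IntS6 averaged 2366 CPM in its line, 65.1-fold over those parental cells, and IntS12 92.9 CPM in its line, 25.6-fold over them. The subunit and the level it reached therefore cannot be told apart in the comparison of the lines. Neither line differed from parental cells in the other line's gene past the threshold: IntS6 in the IntS12 line stood at log2 0.16 ± 0.07 against parental cells, and IntS12 in the IntS6 line at log2 -0.15 ± 0.17 (edgeR adjusted p = 0.664).

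No other subunit of the complex that was found by its symbol was called between the copper-treated lines in the main fit. Of the other Integrator subunits, all 12 that were found were tested and 0 were called by edgeR or by DESeq2, with 2 higher and 0 lower at an unadjusted p under 0.05. IntS8 matched no symbol and was not examined, and whether it was counted under another name was not checked. Their log2 fold changes ran from -0.25 ± 0.15 for IntS14 to 0.28 ± 0.08 for IntS3. IntS3 had 33.2, 29.3 and 29.1 CPM in the IntS6 line and 26.8, 25.2 and 23.8 CPM in the IntS12 line, groups that did not overlap, at an edgeR adjusted p of 0.0513. It stayed uncalled in 11 of 12 alternative fits and was called in the other, with log2 values of 0.21 to 0.32 over them. The subunit gene omd stood at log2 0.24 ± 0.10 between the lines (edgeR adjusted p = 0.179). Against copper-treated parental cells omd was called higher in the copper-treated IntS6 line (log2 0.33 ± 0.10, edgeR adjusted p = 0.0387). The endonuclease subunit IntS11 had a log2 fold change of -0.16 ± 0.08 (edgeR adjusted p = 0.283), and 32.7% of its exon bases lie opposite an antisense RNA. Of 8 phosphatase genes, among them mts and Pp2A-29B, the catalytic and scaffold subunits of PP2A, edgeR and DESeq2 called 0, with 1 at an unadjusted p under 0.05. The gene mts stood at log2 0.02 ± 0.06. The highest of the 8 was CG4733, with 2.40, 1.92 and 1.75 CPM in the IntS6 line and 0.858, 1.42 and 0.812 CPM in the IntS12 line (log2 0.98 ± 0.29, edgeR adjusted p = 0.0514). It was called without IntS12 library B and with a replicate block, and also in the copper-treated IntS6 line against copper-treated parental cells (log2 1.65 ± 0.32, edgeR adjusted p = 0.00146).

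Outside the transgenes, most of the differences were genes with more RNA in the IntS6 line. Of 8174 genes tested, 474 were called at an edgeR adjusted p under 0.05, which is 5.8%: 414 were higher in the IntS6 line (5.06%) and 60 lower (0.734%). Of the higher genes 161 differed by more than 2-fold, and their median difference was 1.68-fold. Of the lower genes 2 differed by more than 2-fold, IntS12 and CG30096 (2.15-fold, named here after its value was seen), and the median difference was 1.29-fold. For 471 of the 474 called genes all 3 libraries of one line lay beyond all 3 of the other, against 23.9% of all genes tested. The calls were made on these same 6 libraries, so this separation is not separate evidence for them. The count rests in part on single libraries: it was 307 without IntS12 library A, 309 without IntS12 library C and 315 without IntS6 library C. By the stricter reading, 197 higher and 5 lower genes stayed called in every fit that left out 1 of the 6 libraries, with these 2 groups alone, and with DESeq2. These fits are called the refits from here on.

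**Figure D1:**
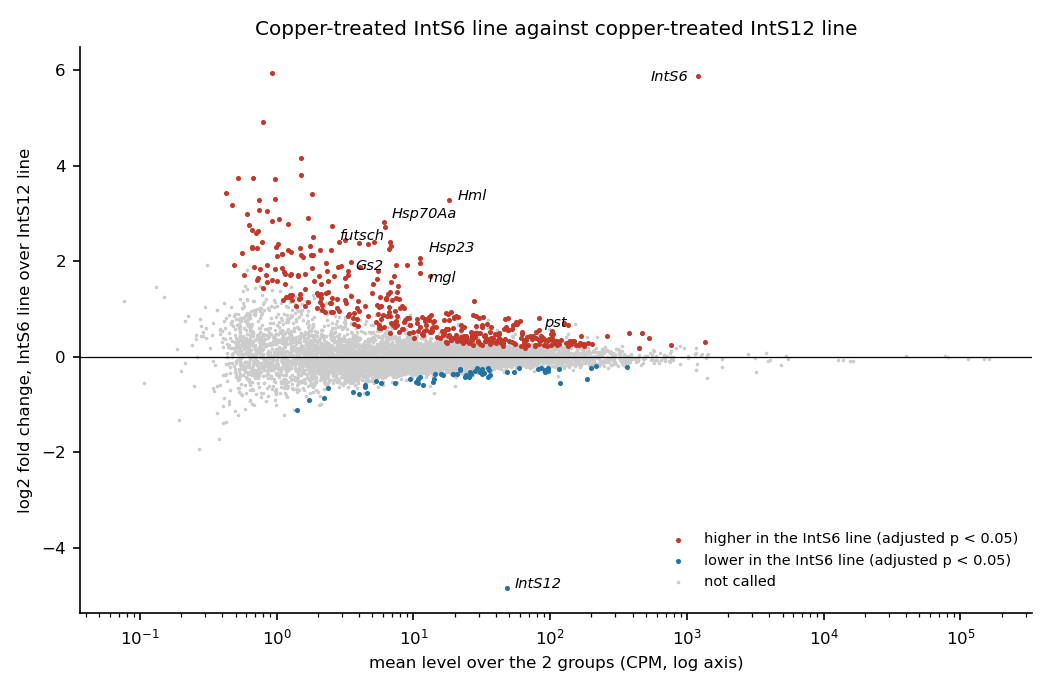
Log2 fold change of the copper-treated IntS6 line over the copper-treated IntS12 line (y axis) against the mean level over both groups (x axis, CPM, log scale), 1 point for each of the 8174 genes tested; red, called higher in the IntS6 line; blue, called lower; grey, not called. The 414 red points reach far from 0, while of the 60 blue points IntS12 stands alone at the bottom.

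Among genes with a mean of at least 5 CPM in one line that were called in every refit, the largest differences after that of IntS6 belonged to Hml, Hsp70 copies, Liprin-gamma, CG17739, futsch and Tig. Genes under that level have fitted fold changes that rest on few counts. Hml (hemolectin, a large clotting protein of plasmatocytes; chromosome 3L, 13846054 to 13860001, plus strand) had 47.9, 27.1 and 24.4 CPM in the IntS6 line and 4.47, 2.98 and 2.71 CPM in the IntS12 line. The difference was 9.76-fold (log2 3.29 ± 0.30, edgeR adjusted p = 2.62e-07), and library A was the highest of its group in both lines. In bulk samples a change in the share of cells that make Hml cannot be told apart from a change in Hml RNA per cell. The summed plasmatocyte markers lay at 584 to 724 CPM in the IntS6 libraries and 473 to 539 CPM in the IntS12 libraries. Without Hml itself the sums were 559 to 676 CPM in the IntS6 libraries and 470 to 534 CPM in the IntS12 libraries, and the part of cell makeup in the Hml difference was not tested.

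The microtubule-associated protein gene futsch (chromosome X, 1409069 to 1453686, plus strand) had 11.1, 10.8 and 12.4 CPM in the IntS6 line and 2.14, 2.51 and 2.17 CPM in the IntS12 line. That is a 5.02-fold difference with little spread (log2 2.33 ± 0.16, edgeR adjusted p = 5.03e-09), and 5.09% of its exon bases overlap another gene on the same strand. The endocytic receptor gene mgl, a member of the LDL receptor family (chromosome X, 9358496 to 9500129, minus strand), had 19.1, 15.7 and 17.3 CPM in the IntS6 line and 4.90, 4.67 and 5.82 CPM in the IntS12 line (log2 1.76 ± 0.13, edgeR adjusted p = 9.74e-09). All 3 IntS6 libraries stood above every IntS12 library for both genes, which the rule for naming genes by fold change had required of futsch.

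Of the remaining genes in this class, Mdr49, an ABC transporter (chromosome 2R, 12940323 to 12946347, minus strand), had 20.5, 15.5 and 17.4 CPM in the IntS6 line and 5.39, 3.93 and 4.40 CPM in the IntS12 line (log2 1.96 ± 0.18, edgeR adjusted p = 2.08e-07). Tig, the matrix protein tiggrin that binds PS integrins, had 14.0, 10.1 and 8.62 CPM in the IntS6 line and 2.51, 1.96 and 2.37 CPM in the IntS12 line (log2 2.26 ± 0.25). CG17739 averaged 6.76 ± 0.743 CPM in the IntS6 line and 1.29 ± 0.0682 CPM in the IntS12 line (SD, n = 3; log2 2.39 ± 0.23, edgeR adjusted p = 3.56e-07). Liprin-gamma, of the liprin family of synaptic scaffold proteins, averaged 5.31 ± 1.19 CPM in the IntS6 line and 0.968 ± 0.370 CPM in the IntS12 line (SD, n = 3; log2 2.44 ± 0.30, edgeR adjusted p = 1.28e-05). The Slit receptor gene robo2 differed by 3.96-fold (log2 1.99 ± 0.23), with 20.0% of its exon bases shared with another gene on the same strand and 22.9% opposite an antisense RNA.

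**Figure D2:**
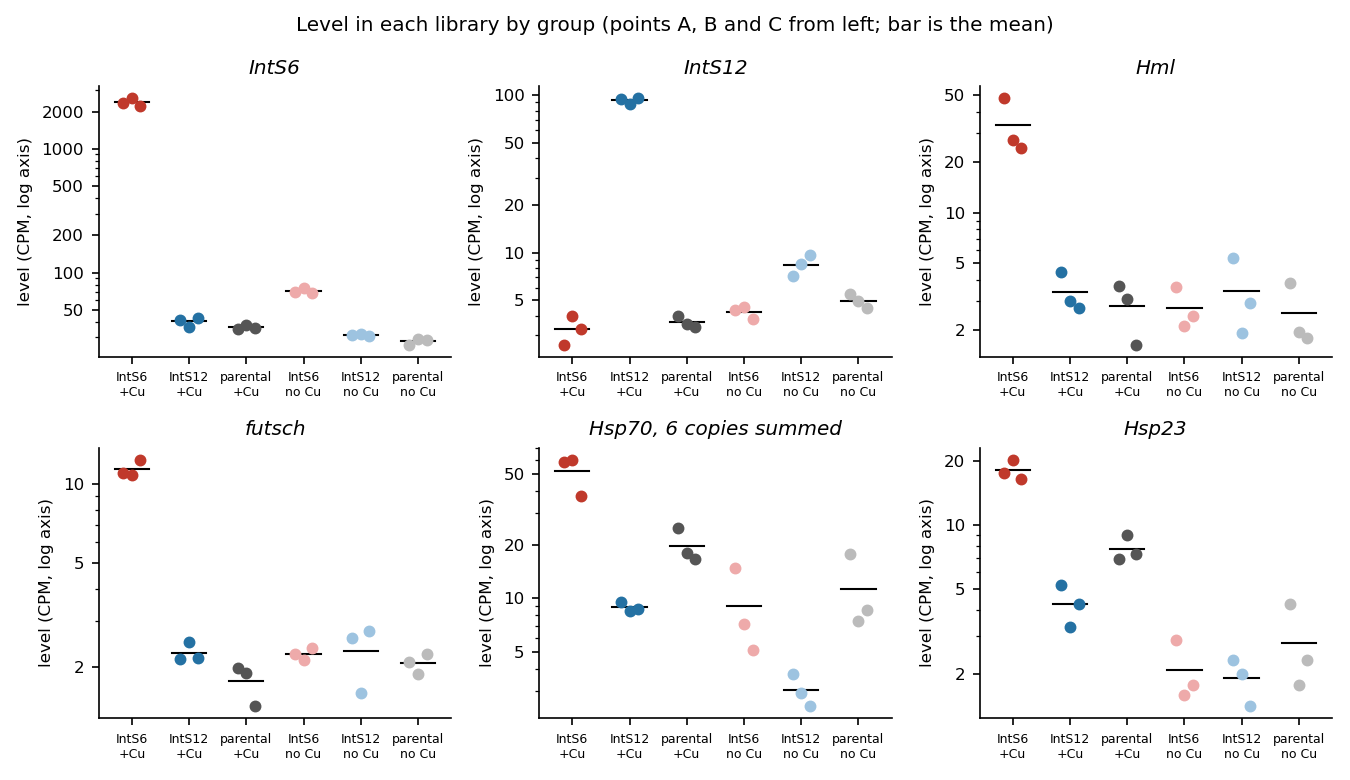
Level of IntS6, IntS12, Hml, futsch, the 6 summed Hsp70 copies and Hsp23 in each of the 18 libraries (y axis, CPM, log scale, a separate range for each panel), by group on the x axis with the IntS6 line first, then the IntS12 line and parental cells, with copper and then without; bars are means of 3 libraries. For Hml and futsch the copper-treated IntS6 libraries stand apart from all other groups, while the summed Hsp70 copies are highest in the copper-treated IntS6 line at 37.7 to 59.9 CPM and lower in the copper-treated IntS12 line (8.52 to 9.53 CPM) than in copper-treated parental cells (16.6 to 24.8 CPM).

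Heat shock genes differed between the lines. Their list and those below were chosen with earlier results of these data known. The counts of each list stand against 5.06% called higher and 0.734% called lower over all genes tested. Of the 19 tested members of this list 12 were higher in the IntS6 line and 1 was lower, with a median log2 fold change of 0.94 against -0.01 over all genes tested. Of the 13 calls 10 stood in every refit, the 6 Hsp70 copies among them. With the 6 Hsp70 copies counted as 1 gene, 7 of 14 were higher and 1 lower, with a median log2 fold change of 0.23. The 6 Hsp70 genes, which code for the main stress-inducible chaperone, are near-identical copies among which the counting could split reads, so they were also summed and tested as 1 gene. The sum was 58.2, 59.9 and 37.7 CPM in the IntS6 line and 9.53, 8.52 and 8.71 CPM in the IntS12 line, a 5.82-fold difference (log2 2.54 ± 0.28, edgeR adjusted p = 3.08e-06). Copper-treated parental cells lay between them at 24.8, 17.8 and 16.6 CPM, without overlap with either line. The IntS6 line was 2.64-fold above parental cells (log2 1.40 ± 0.25, edgeR adjusted p = 0.000688), and the IntS12 line was 2.21-fold below them without passing the threshold (log2 -1.14 ± 0.29, edgeR adjusted p = 0.487). Without copper the sum was 14.8, 7.15 and 5.11 CPM in the IntS6 line and 3.73, 2.94 and 2.48 CPM in the IntS12 line, which did not overlap and were not called (log2 1.53 ± 0.38, edgeR adjusted p = 0.408).

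Hsp23 and Hsp27 code for small heat shock proteins. Hsp23 had 17.6, 20.2 and 16.4 CPM in the copper-treated IntS6 line and 5.21, 3.32 and 4.26 CPM in the copper-treated IntS12 line (log2 2.07 ± 0.21, edgeR adjusted p = 8.89e-07). Without copper it had 2.89, 1.60 and 1.77 CPM in the IntS6 line and 2.31, 2.00 and 1.41 CPM in the IntS12 line, and the groups overlapped. Hsp27, with 38.7, 38.7 and 37.1 CPM in the IntS6 line and 25.2, 19.1 and 20.6 CPM in the IntS12 line, had a log2 fold change of 0.82 ± 0.11 with copper (edgeR adjusted p = 5.12e-05) and -0.06 without. Hsp68 had 8.96, 11.3 and 7.43 CPM in the IntS6 line and 4.23, 4.00 and 2.91 CPM in the IntS12 line (log2 1.31 ± 0.17, edgeR adjusted p = 3.15e-05). In addition stv, a co-chaperone of the BAG family, averaged 24.9 CPM in the IntS6 line and 13.0 CPM in the IntS12 line (log2 0.94 ± 0.13). The constitutive chaperones stood near 0, Hsp83 at log2 0.08 ± 0.06 and Hsc70-4 at 0.05 ± 0.06, and so did the heat shock transcription factor gene Hsf at 0.12 ± 0.08 (edgeR adjusted p = 0.467). The 1 lower member was the long noncoding RNA lncRNA:Hsromega, at 158, 158 and 152 CPM in the IntS6 line and 220, 204 and 220 CPM in the IntS12 line (log2 -0.46 ± 0.12, edgeR adjusted p = 0.0276). It was not called in any fit that left out 1 library.

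Genes that earlier work had named as attenuated by Integrator did not fall in the IntS6 line. Of 8 such genes 6 were higher and 0 lower, with a median log2 fold change of 0.84, and 5 of the 6 calls stood in every refit. At an unadjusted p under 0.05 all 8 were higher, and DESeq2 called 6 higher and 0 lower. The antiviral gene pst had 95.1, 89.9 and 93.5 CPM in the IntS6 line and 64.8, 66.4 and 63.1 CPM in the IntS12 line, without overlap (log2 0.52 ± 0.10, edgeR adjusted p = 0.00167). The Fos transcription factor gene kay had 184, 204 and 198 CPM in the IntS6 line and 143, 141 and 146 CPM in the IntS12 line (log2 0.44 ± 0.09, edgeR adjusted p = 0.00365). The zinc finger gene peb averaged 2.20 ± 0.295 CPM in the IntS6 line and 0.674 ± 0.114 CPM in the IntS12 line (SD, n = 3; log2 1.70 ± 0.37, edgeR adjusted p = 0.00575).

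MtnA and MtnB, both among these genes, code for metallothioneins, which bind copper, and MtnA is also the source of the promoter in front of both transgenes. MtnB had 13.7, 10.4 and 8.90 CPM in the IntS6 line and 5.64, 4.47 and 4.20 CPM in the IntS12 line, without overlap (log2 1.21 ± 0.18, edgeR adjusted p = 0.000496). MtnA had 495, 612 and 540 CPM in the IntS6 line and 448, 317 and 397 CPM in the IntS12 line, without overlap (log2 0.50 ± 0.13, edgeR adjusted p = 0.0180). The call ended in 5 of 12 alternative fits, among them those without IntS6 library B or C and without IntS12 library B or C. No source says whether MtnA sequence on the plasmids was counted. Of 16 tested genes for metallothioneins and for copper or zinc handling, 4 were higher and 0 lower, 1 of them in every refit, with a median log2 fold change of 0.26. At an unadjusted p under 0.05 the list had 8 higher and 1 lower, and DESeq2 called 3 higher and 0 lower. Without 1 library edgeR called 1 to 3, the lowest count being the one without IntS12 library B.

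Several enzymes of sugar metabolism had more RNA in the IntS6 line, while the lists of amino acid and fat metabolism below had few calls or split. Of 15 tested genes of glycolysis and gluconeogenesis 5 were higher and 0 lower, 3 in every refit, with a median log2 fold change of 0.22. By other counts 7 were higher and 0 lower at an unadjusted p under 0.05, and DESeq2 called 5 higher and 0 lower. The gluconeogenic gene fbp, for fructose-bisphosphatase, had 5.08, 4.49 and 4.69 CPM in the IntS6 line and 1.16, 1.96 and 1.42 CPM in the IntS12 line (log2 1.65 ± 0.27, edgeR adjusted p = 0.000445). Pepck1, for phosphoenolpyruvate carboxykinase and also one of the genes named earlier as attenuated, averaged 1.78 ± 0.218 CPM in the IntS6 line and 0.389 ± 0.111 CPM in the IntS12 line (SD, n = 3; log2 2.16 ± 0.31, edgeR adjusted p = 8.78e-05). All of its exon bases (100%) also belong to another annotated gene on the same strand. Treh, which splits trehalose, had 54.9, 62.0 and 58.4 CPM in the IntS6 line and 34.1, 44.8 and 40.5 CPM in the IntS12 line (log2 0.55 ± 0.09, edgeR adjusted p = 0.000605; 12.8% of its exon bases lie opposite another gene).

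For glutamine and glutamate metabolism 4 of 8 tested genes lay above 0 and 4 below. The 1 gene called was Gs2, a glutamine synthetase (chromosome X, 11422832 to 11430197, plus strand). It had 12.2, 11.5 and 11.6 CPM in the IntS6 line and 2.33, 2.98 and 4.13 CPM in the IntS12 line, without overlap (log2 1.91 ± 0.24, 3.76-fold, edgeR adjusted p = 1.73e-05). Of 14 tested genes of the ATF4 and amino acid starvation list 2 were higher and 0 lower, against 5.06% higher and 0.734% lower of all genes tested. CG1607, a predicted amino acid transporter, was called in every refit, at 4.70 ± 1.17 CPM in the IntS6 line and 1.69 ± 0.205 CPM in the IntS12 line (SD, n = 3; edgeR adjusted p = 0.00383). By DESeq2 this list had 2 higher and 0 lower, and at an unadjusted p under 0.05 it had 4 higher and 1 lower.

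The list of lipases and carnitine acyltransferases split, with 3 higher and 2 lower of 12 tested and a median log2 fold change of -0.14. The lipase gene Lip4 was higher at a low level, 2.13 ± 0.127 CPM in the IntS6 line and 0.305 ± 0.0338 CPM in the IntS12 line (SD, n = 3; log2 2.77 ± 0.40, edgeR adjusted p = 9.17e-05). The carnitine palmitoyltransferase gene whd had 9.87, 8.33 and 7.85 CPM in the IntS6 line and 5.09, 5.76 and 5.62 CPM in the IntS12 line (log2 0.67 ± 0.14, edgeR adjusted p = 0.00365; 11.1% of its exon bases lie opposite an antisense RNA). The 2 lower members, CROT (log2 -0.50 ± 0.13) and Mtpalpha (log2 -0.22 ± 0.06), an acyltransferase and a subunit of the mitochondrial trifunctional protein, lost their calls in 7 and in 8 of 12 alternative fits.

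Cytoskeletal and adhesion genes showed a few large differences on top of many small ones. Of 18 tested microtubule and actin genes 6 were higher and 0 lower, with a median log2 fold change of 0.18. Further, 11 were higher and 0 lower at an unadjusted p under 0.05, and DESeq2 called 6 and 0. Of these 6, futsch and ringer stood in every refit. The microtubule regulator gene ringer had 6.85, 6.27 and 6.02 CPM in the IntS6 line and 2.27, 1.49 and 1.42 CPM in the IntS12 line (log2 1.87 ± 0.21, edgeR adjusted p = 4.17e-06). Without 1 library the count was 2 to 4, and it was 2 without IntS12 library B. Act5C, a cytoplasmic actin gene, stood at 1509 CPM in the IntS6 line and 1208 CPM in the IntS12 line (log2 0.32 ± 0.07, edgeR adjusted p = 0.00800). It was not called without IntS12 library B (edgeR adjusted p = 0.0618). Of 16 tested synapse and axon adhesion genes 3 were higher and 0 lower, and Liprin-gamma was the 1 of them called in every refit, the count being 1 without IntS6 library A and without IntS12 library A or C.

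Blood cell markers beyond Hml were mixed. Of 14 tested plasmatocyte markers 4 were higher and 0 lower, with a median log2 fold change of 0.20. Of the same markers 8 were higher and 0 lower at an unadjusted p under 0.05, and DESeq2 called 5 and 0. Hml and Ance, an ACE homologue at 2.47 ± 0.619 CPM in the IntS6 line and 0.498 ± 0.142 CPM in the IntS12 line (SD, n = 3; edgeR adjusted p = 0.000962), were called in every refit. The engulfment receptor gene drpr (log2 0.39 ± 0.10) and glec (log2 0.51 ± 0.13) were called in 10 of 12 alternative fits each. The call of drpr ended without IntS6 library B or IntS12 library B, and that of glec without IntS6 library A or IntS12 library C. The phagocytosis receptor gene eater had a log2 fold change of 0.23 (edgeR adjusted p = 0.235), and the peroxidasin gene Pxn one of -0.01 (edgeR adjusted p = 0.978), and neither was called. The lowest of the 4 markers below 0 was Col4a1, a collagen IV gene (log2 -0.74 ± 0.38, edgeR adjusted p = 0.306). Of 7 tested markers of crystal cells and lamellocytes, the other blood cell types of the fly, 4 were higher and 0 lower (peb and Treh in every refit, cher and msn not), with a median log2 fold change of 0.31. A further 5 members of that list had too few counts to be tested, and peb and Treh are also described above under other lists. Of 16 tested JNK and JAK-STAT genes 4 were higher and 0 lower, with kay alone in every refit and counts of 2 without IntS6 library A or C and without IntS12 library A.

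The lower genes were many small differences. Besides IntS12, 4 passed the rule of level, non-overlap and refits. CG4598 had 21.7, 20.2 and 19.2 CPM in the IntS6 line and 24.6, 28.0 and 29.3 CPM in the IntS12 line (log2 -0.42 ± 0.09, edgeR adjusted p = 0.00558). COX5A, a subunit of cytochrome c oxidase, had 27.4, 28.3 and 27.8 CPM in the IntS6 line and 37.1, 33.5 and 36.3 CPM in the IntS12 line (log2 -0.36 ± 0.07, edgeR adjusted p = 0.00423). The remaining genes were Ssrp, a subunit of the histone chaperone FACT (log2 -0.29 ± 0.06, edgeR adjusted p = 0.00619), and Alg3 (log2 -0.36 ± 0.09, edgeR adjusted p = 0.0110). Alg3 codes for a mannosyltransferase of N-glycan assembly, and 21.4% of its exon bases lie opposite an antisense RNA.

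A list of respiratory chain and ATP synthase genes, COX5A among them, was added after these values were seen, so its counts are a description and not separate evidence. Of 72 tested members 0 were higher and 9 lower, against 0.734% lower of all genes tested. The list had 69 of 72 below 0 and a median log2 fold change of -0.19. The count was 1 without IntS6 library A and without IntS12 library A, 2 without IntS6 library C, 4 without IntS12 library C and 9 without library B of either line, and COX5A alone stood in every refit. Without copper the median of the same genes was -0.02, and DESeq2 called the same number, 9 lower and 0 higher, with copper. Cytosolic ribosomal protein genes had a smaller median of -0.10, with 75 of 83 below 0, 0 called higher and 1 called lower by edgeR and by DESeq2, and 0 higher and 7 lower at an unadjusted p under 0.05. The median was -0.01 over all genes tested and -0.08 in the shortest of 5 groups of them by annotated span. Among genes of that group with a mean of at least 5 CPM it was -0.11. How far the low medians of these lists, and of the histone genes below, go with gene span was not tested.

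Replication-dependent histone genes, near-identical copies in a cluster, were below 0 for 110 of 111 copies (median log2 -0.25), and edgeR and DESeq2 called 0 of them, with 0 higher and 15 lower at an unadjusted p under 0.05. Summed by class, His4 had 53.3, 58.7 and 63.3 CPM in the IntS6 line and 94.8, 76.4 and 72.8 CPM in the IntS12 line (log2 -0.48 ± 0.16, edgeR adjusted p = 0.0970). It is called when these 2 groups alone are fitted (edgeR adjusted p = 0.00558), and the groups did not overlap. The summed His1, His2A, His2B and His3 classes ran from log2 -0.28 to -0.18. Of 32 tested DNA replication and cell cycle genes 1 was higher and 2 lower. The higher one was stg, the Cdc25 phosphatase gene, with 121, 107 and 125 CPM in the IntS6 line and 89.3, 83.1 and 79.9 CPM in the IntS12 line (log2 0.49 ± 0.08, edgeR adjusted p = 0.000329).

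Small nuclear RNAs, the classical products of Integrator cleavage, gave no call: edgeR and DESeq2 called 0 of 23 tested, with 0 higher and 2 lower at an unadjusted p under 0.05 and a median log2 fold change of -0.10. Over the 12 alternative fits 0 to 2 were called lower. The median of -0.10 lies near that of short genes at large, which was -0.08 in the shortest of 5 groups of tested genes by span. In the copper-treated IntS6 line against parental cells 1 was called lower, snRNA:U1:21D (log2 -0.41, edgeR adjusted p = 0.00965), which stood at log2 -0.31 ± 0.10 between the lines (edgeR adjusted p = 0.0744). Of the genes for Pol II pausing and elongation, 1 of 19 was higher (bin3, log2 0.27 ± 0.08, edgeR adjusted p = 0.0446) and 1 lower (atms, log2 -0.36 ± 0.11, edgeR adjusted p = 0.0468). Each call ended in 7 of 12 alternative fits, and part of atms lies opposite another gene. The ecdysone list had 1 gene higher and 0 lower of 13 tested. It was the nuclear receptor gene Hr4, at 2.86 ± 0.508 CPM in the IntS6 line and 1.17 ± 0.316 CPM in the IntS12 line (SD, n = 3; log2 1.29 ± 0.26, edgeR adjusted p = 0.00340). Of 28 tested genes for oxidative stress and glutathione 1 was higher and 0 lower, of 17 for the ER unfolded protein response 0 higher and 1 lower, and both calls were lost in some refits. Apoptosis genes had 0 called of 8 tested by edgeR and by DESeq2, with 1 higher at an unadjusted p under 0.05, and iron handling genes 0 of 9, with 2 higher and 1 lower. Toll and Imd immunity genes had 1 higher of 18 tested (spz, log2 0.70) and ABC transporters 1 of 6 (Mdr49), with 0 lower in each. The call of spz ended without IntS6 library A or C and without IntS12 library A or B. Of 3 tested germline markers edgeR and DESeq2 called 0, and 0 had an unadjusted p under 0.05. Over all genes tested 5.06% were called higher and 0.734% lower. A list of 13 to 28 tested genes with 1 called higher lies near the first of these shares.

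**Figure D3:**
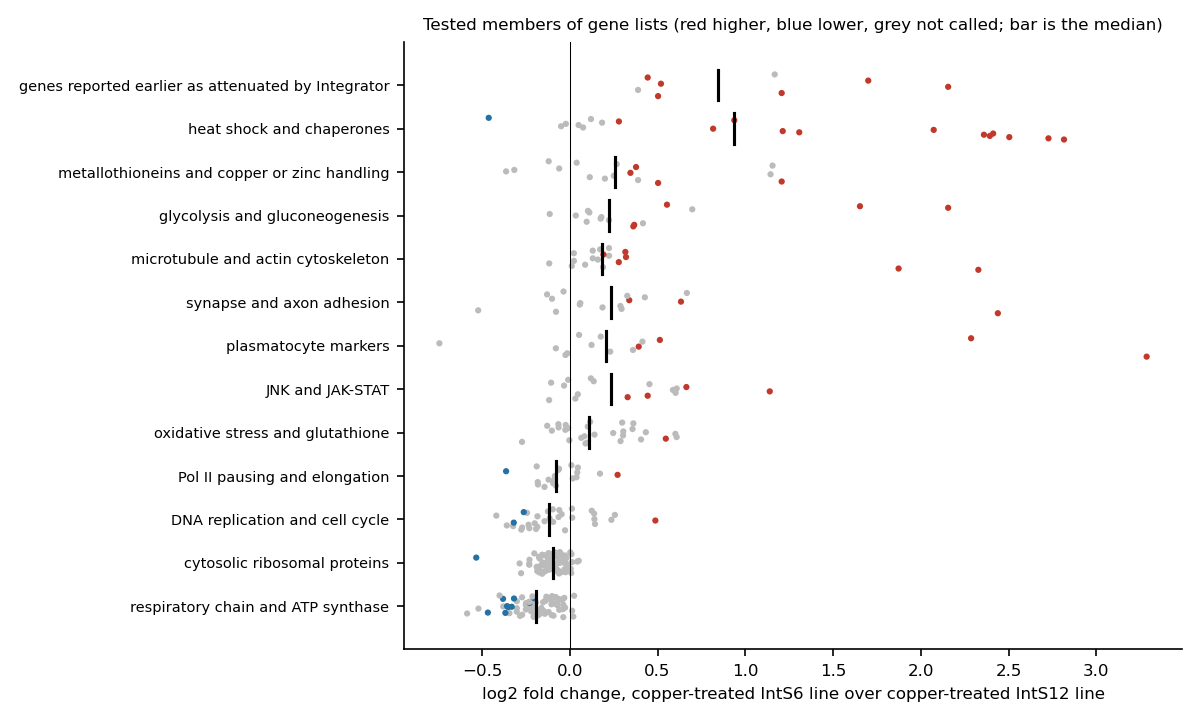
Log2 fold change of the copper-treated IntS6 line over the copper-treated IntS12 line (x axis) for each tested member of 13 gene lists (rows; some genes stand in more than 1 list); red, called higher; blue, called lower; grey, not called; the bar is the median of the list. Heat shock genes and genes named earlier as attenuated by Integrator have medians of 0.94 and 0.84. With the 6 Hsp70 copies counted as 1 gene the heat shock median is 0.23. The respiratory chain list, added after the values were seen, lies below 0 with a median of -0.19, and the other lists were chosen with earlier results of these data known.

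To see how far the lines differed before induction, they were compared without copper, in 6 libraries that share none with the comparison above. Of 8174 genes 5 were called (0.0612%), 4 higher (0.0489%) and 1 lower (0.0122%), with 239 at an unadjusted p under 0.05 and 10 called by DESeq2. IntS6 had 69.9, 75.5 and 68.9 CPM in the uninduced IntS6 line and 31.3, 31.9 and 30.8 CPM in the uninduced IntS12 line (log2 1.19 ± 0.07, edgeR adjusted p = 1.33e-09). IntS12 had 4.34, 4.52 and 3.80 CPM in the uninduced IntS6 line and 7.11, 8.53 and 9.69 CPM in the uninduced IntS12 line (log2 -0.99 ± 0.14, edgeR adjusted p = 0.00110). Each gene was thus higher in the line that carries its transgene before copper was added.

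The remaining calls without copper were the cytochrome P450 gene Cyp304a1, the cadherin gene Cad88C and CG1674, all higher in the IntS6 line. Cyp304a1 had 1.73, 2.00 and 2.24 CPM in the uninduced IntS6 line and 0.113, 0.267 and 0.0707 CPM in the uninduced IntS12 line (log2 3.67 ± 0.44, edgeR adjusted p = 0.000126). With copper it had 1.83, 1.99 and 1.68 CPM in the IntS6 line and 0.123, 0.339 and 0.271 CPM in the IntS12 line. Its difference was thus present with and without induction. CG1674 had 15.4, 17.0 and 16.1 CPM in the uninduced IntS6 line and 10.9, 10.9 and 10.3 CPM in the uninduced IntS12 line (log2 0.60 ± 0.10, edgeR adjusted p = 0.0114), a call that ended in 6 of 12 alternative fits. The count was 3 without IntS6 library B and without IntS12 library A or B, in each of which Cad88C and CG1674 lost their calls.

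Whether copper changed the difference between the lines was tested as an interaction, the copper response of the IntS6 line minus that of the IntS12 line. It was called for 54 genes (0.661%), 53 of them positive (0.648%) and 1, IntS12, negative (0.0122%), with 700 at an unadjusted p under 0.05. The interaction rests on 4 groups and has larger errors than the difference with copper alone, so a gene called with copper and not called without is not thereby shown to have changed. The count was 28 without copper-treated IntS6 library A, 35 without copper-treated IntS12 library C, 24 and 28 without uninduced IntS6 library B or C, and 28 and 30 without uninduced IntS12 library A or C. In 20 of the 54 genes the call stood with DESeq2 and without each of the 12 libraries.

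Besides IntS6 (log2 4.68 ± 0.10, edgeR adjusted p = 6.88e-19) and IntS12 (log2 -3.84 ± 0.20, edgeR adjusted p = 1.20e-11), the rule names Hml, futsch and mgl. The interaction of Hml was log2 3.65 ± 0.51 (edgeR adjusted p = 0.000326): without copper it had 3.61, 2.13 and 2.45 CPM in the IntS6 line and 5.42, 1.93 and 2.90 CPM in the IntS12 line, and the groups overlapped. For futsch it was log2 2.37 ± 0.26 (edgeR adjusted p = 1.59e-05), with 2.24, 2.13 and 2.38 CPM in the uninduced IntS6 line and 2.60, 1.60 and 2.76 CPM in the uninduced IntS12 line. For mgl it was log2 2.02 ± 0.26 (edgeR adjusted p = 0.000157), with 1.37, 1.53 and 1.43 CPM in the uninduced IntS6 line and 1.75, 1.53 and 1.91 CPM in the uninduced IntS12 line. Without copper none of the 3 genes was called: their log2 differences were -0.37 ± 0.40 for Hml, -0.05 ± 0.20 for futsch and -0.26 ± 0.22 for mgl. With copper the means of all 3 were above those of the IntS12 line.

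The interaction of the summed Hsp70 copies, log2 1.01 ± 0.49, was not called (edgeR adjusted p = 0.583). Other genes described above with a called interaction were Gs2 (log2 2.41 ± 0.48, edgeR adjusted p = 0.0150), CG17739 (log2 2.34 ± 0.43, edgeR adjusted p = 0.00830), and Hsp23 (log2 1.98 ± 0.38, edgeR adjusted p = 0.0125). So were the interactions of Hsp68 (log2 1.36 ± 0.26, edgeR adjusted p = 0.00891) and Hsp27 (log2 0.87 ± 0.16, edgeR adjusted p = 0.00830). Those of Hsp68 and Hsp27 held in all 18 alternative fits, while that of CG17739 ended without uninduced IntS12 library C, and those of Gs2 and Hsp23 ended in 3 fits each that left out an uninduced library. The interactions of whd, stv, Treh and pst were called at edgeR adjusted p of 0.0286, 0.0392, 0.0327 and 0.0411, and ended in 8, 12, 9 and 12 of 18 alternative fits.

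**Figure D4:**
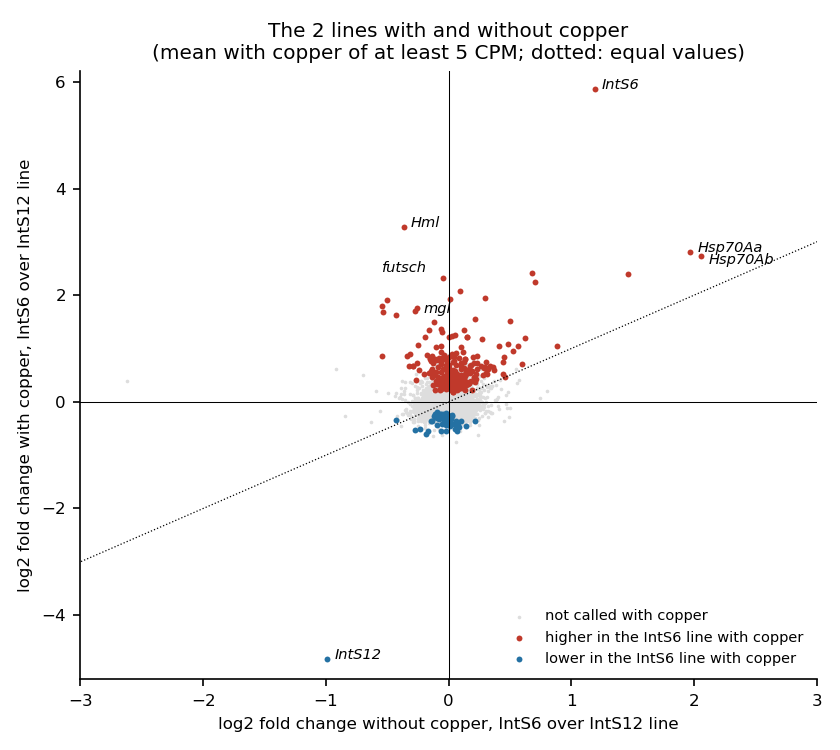
Log2 fold change of the IntS6 line over the IntS12 line with copper (y axis) and without copper (x axis) for genes tested with a mean of at least 5 CPM over the 2 copper-treated groups; red and blue, called higher and lower with copper; grey, not called; the dotted line marks equal values. Hml, futsch and mgl, none of them called without copper, lie left of 0 on the x axis. The 4 Hsp70 copies at this level, none called without copper, lie at 0.68 (Hsp70Bc), 1.46 (Hsp70Bb), 1.97 (Hsp70Aa) and 2.06 (Hsp70Ab) on it.

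Copper-treated parental cells show which line stood apart, with the limit that the same 3 parental libraries enter both comparisons. The IntS6 line differed from them in 728 genes (8.91%), 609 higher (7.45%) and 119 lower (1.46%). The IntS12 line differed from them in 2 genes (0.0245%), IntS12 higher and Tmtc2 lower (0.0122% each), with 297 at an unadjusted p under 0.05 and 5 called by DESeq2. Tmtc2, a transmembrane protein of the TMTC family, had 0.368, 0.474 and 0.744 CPM in the copper-treated IntS12 line and 3.27, 2.18 and 2.47 CPM in copper-treated parental cells (log2 -2.30 ± 0.34, edgeR adjusted p = 0.00364). That call ended with these 2 groups alone and without IntS12 library A or B or parental library A, and the count was 7 without parental library C. In the IntS6 line with copper Tmtc2 was also low, at 0.302 ± 0.212 CPM against 0.529 ± 0.194 CPM in the IntS12 line (SD, n = 3).

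Of the 414 genes called higher in the IntS6 line than in the IntS12 line, 412 had a parental mean closer to the IntS12 line, as had 53 of the 60 called lower and 68.7% of all genes tested. For Mdr49 the IntS12 line lay between the others, with 17.8 ± 2.53 CPM in the IntS6 line, 4.57 ± 0.747 CPM in the IntS12 line and 2.38 ± 0.871 CPM in parental cells (SD, n = 3). Its difference between the IntS12 line and parental cells was not called (log2 0.95 ± 0.22, edgeR adjusted p = 0.293).

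What the called genes share beyond their level was read from the annotation and from the copper response of parental cells, in libraries outside the 2 groups compared, which share their filter, scaling and estimate of spread because all 18 libraries entered 1 fit. Of the 414 higher genes 41.3% were raised by copper in parental cells, where 38.6% of all genes were called, 19.3% higher and 19.4% lower; the share was 20% among the 60 lower genes. Their difference between the uninduced lines was positive for 61.1% of the higher genes, 30.0% of the lower genes and 49.8% of all genes. The higher genes were also long. Their median span from first to last annotated base was 12.4 kb, against 2.78 kb for the lower genes and 2.61 kb for all tested genes, and 228 of the 407 with an annotated span (56.0%) exceeded 10 kb, against 15.8% of all.

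The tested genes were divided into 5 groups of about equal size by span. Of the longest group (from 7.50 kb) 15.9% were called higher and 0.679% lower, and of the shortest (up to 1.24 kb) 0.617% were called higher and 0.925% lower. The longest group also had more counts, with a median level of 25.5 CPM against 4.04 CPM in the shortest. Among genes with a mean of at least 5 CPM, 12.9% of the longest group and 0.570% of the shortest were called higher, at median levels of 36.7 CPM in the longest and 10.3 CPM in the shortest. The median log2 fold change, which does not depend on calls, was 0.11 in the longest and -0.08 in the shortest group with copper, and 0.02 in the longest and -0.01 in the shortest without.

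The contrast was visible in single libraries. In each library the median level of the longest group, relative to the mean of all 18 libraries on a log2 scale, was set against that of the shortest, over 1281 and 702 genes with a mean of at least 5 CPM. The copper-treated IntS6 libraries gave 0.167, 0.0619 and 0.132, and the copper-treated IntS12 libraries -0.0358, -0.0202 and -0.0713. Copper-treated parental cells gave -0.0187, -0.0651 and -0.136, and the 9 libraries without copper lay from -0.0441 to 0.0307. The IntS6 libraries did not overlap with those of any other group.

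**Figure D5:**
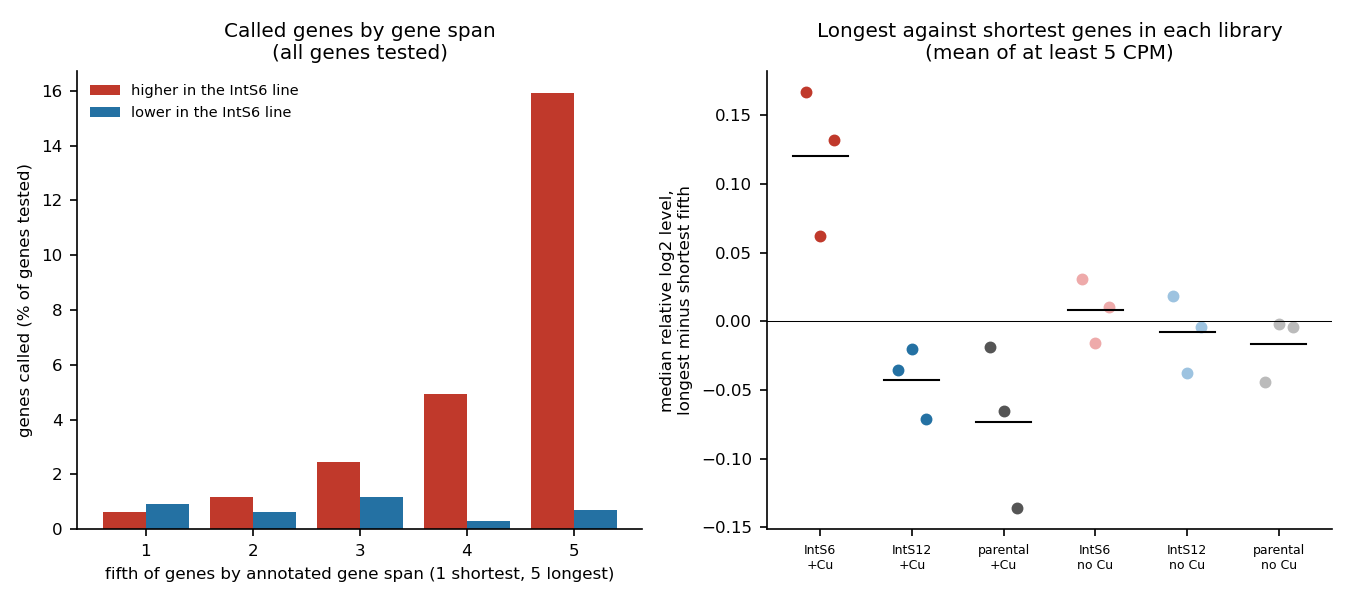
Left, share of the genes tested that were called higher (red) or lower (blue) in the copper-treated IntS6 line than in the copper-treated IntS12 line (y axis, %), in 5 groups of annotated gene span (x axis). Right, median relative log2 level of the longest group minus that of the shortest group in each of the 18 libraries (y axis) by group (x axis), with bars for means of 3 libraries; the copper-treated IntS6 libraries lie at 0.0619 to 0.167 and all other libraries below them.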

How the data were processed

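Total RNA of 18 samples was depleted of ribosomal RNA and sequenced strand-specifically, per the labels' protocols. The submitters' processing notes name Trimmomatic 0.39, featureCounts and the builds dm6 and BDGP6; no source used here names the aligner, annotation release or strand setting. The deposited table holds the authors' counts per gene for 17753 genes, taken as estimated counts because 13.4% of values are not whole, and 17626 of the genes matched a symbol. Counts were rounded to whole numbers here. Without the strand setting, reads of overlapping and antisense genes cannot be assigned with certainty. Genes named as rRNA held 70.2% to 73.4% of each library and were kept in library sizes.

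All 18 libraries entered 1 edgeR 4.0.16 fit in R 4.3.3 (means of 6 groups, TMM scaling, filterByExpr), which kept 8174 of 13350 genes with any count (quasi-likelihood F-test, 12 residual degrees of freedom). The threshold for a call was an adjusted p (Benjamini-Hochberg, over all tested genes) of 0.05. A standard error is the size of the log2 value over the root of its F. The procedure was tested on simulated counts. CPM use TMM-scaled library sizes. Coordinates, spans and overlaps come from BDGP6.54, which covered 8106 of the tested genes. DESeq2 1.42.0, library sizes alone, no filter, rRNA genes removed, the groups compared alone, a replicate block and leaving out each library were tried.

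The named genes are the Integrator subunits, up to 14 per direction by fold change among called genes of at least 5 CPM that did not overlap and stayed called with DESeq2, with the 2 groups alone and without each library, up to 4 per direction in the comparison without copper and the interaction, and up to 4 per list; Act5C, CG30096, CROT, Hsf, Hsp27, Hsp68, Hsp83, Hsc70-4, MtnA, Mtpalpha, Pxn, CG4733, Col4a1, snRNA:U1:21D, atms, bin3, cher, drpr, eater, glec, lncRNA:Hsromega, msn, mts, Pp2A-29B, spz and stv were named after their values were seen, and Cad88C, CG1674, Cyp304a1 and Tmtc2 because few genes were called in their comparisons. The comparison, the members and the 31 gene lists were chosen with earlier results of these data known. Lists share members, and the result of 1 list is not reported here. Small nuclear RNA, histone and Hsp70 genes have near-identical copies. Replicates of a group differed by more than counting noise (chi-square per degree of freedom of 4.58 to 15.2), and none were merged. Libraries with the same letter did not deviate together between the copper-treated lines (r from -0.11 to 0.16), so letters were not used as pairs there. Across letters r reached -0.21 (IntS6 A with IntS12 C) and 0.21 (IntS6 B with IntS12 C). Letters were also not used between the uninduced lines, where 1 of 3 pairs was under 0.1 (r from 0.0867 to 0.32). In the copper-treated IntS6 line against parental cells same letters did deviate together (r from 0.28 to 0.44), by the data and not by any label. For the copper-treated IntS12 line against parental cells same letters gave r from -0.20 to 0.24, and IntS12 C with parental B gave 0.34. A shared batch that does not follow the letters was not tested.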

Additional observations from a re-analysis of the deposited data

Results flagged for a closer look

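The difference between the lines itself differed with and without copper, by the interaction test of edgeR, for 54 genes. Among the genes described, the log2 interaction was 4.68 for IntS6, -3.84 for IntS12, 3.65 for Hml, 2.41 for Gs2, 2.37 for futsch, 2.34 for CG17739, 2.02 for mgl, 1.98 for Hsp23, 1.36 for Hsp68, 0.99 for whd, 0.87 for Hsp27, 0.82 for stv, 0.65 for Treh and 0.64 for pst.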

How the results depend on the processing

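Calls between the copper-treated lines numbered 404 with library sizes alone, 446 with DESeq2, 468 without rRNA genes, 541 with these groups alone, 670 with no filter and 616 with a replicate block, and 307 to 395 when 1 library was left out. The block calls held all 474; the letters did not pair these libraries. For IntS6 line with copper against parental cells with copper, where letters paired, the replicate block gave 893 calls in place of 728. Without copper, the 5 calls became 10 with DESeq2, 21 with no filter, 8 with a replicate block, 9 with these groups alone and 3 to 5 with 1 library left out. The 54 interaction calls became 155 with no filter and 24 to 52 with 1 library left out. The IntS6 line differed from parental cells in 454 genes with these groups alone, and the IntS12 line in 5 with DESeq2, 22 with no filter, 6 with a replicate block, 1 with these groups alone and 1 to 7 with 1 library left out. The cause of these shifts was not tested. Summed histones passed the threshold in some settings: with no filter His2A (log2 -0.28, edgeR adjusted p = 0.00855), His2B (-0.29, 0.0108) and His4 (-0.49, 5.80e-07), and His4 also with the block (-0.49, 0.0370) and with these groups alone (-0.49, 0.00558). Uncalled subunits near 0 changed sign, with ranges over libraries left out of -0.0127 to 0.13 for IntS2, -0.0459 to 0.0809 for defl, -0.0353 to 0.0570 for IntS9, -0.19 to 0.19 for asun and -0.0889 to 0.10 for CG5274, which was -0.0015 with these groups alone. The median of all genes moved by less than 0.1 under every scaling. The level below which a difference could not be detected was not measured.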

Other observations

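The lower genes were rarely on the X chromosome. Of the 60 genes called lower in the copper-treated IntS6 line 1 (1.67%) is X-linked, against 18.4% of the genes called higher and 17.3% of all tested genes with an annotated position. The lower calls are weak: 49 of the 60 differed by less than 1.5-fold, and 5 stood in every refit. The share on the X chromosome was not tested.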
